A study of Mus musculus with 8 samples.

Results

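Mitosis genes are the genes whose products carry a cell from the entry into mitosis through chromosome separation to the splitting of the cell. A list of 36 such genes was followed in mouse pro-B cells, early B lineage cells of the bone marrow. The members were all probesets of the array whose platform annotation names 1 listed symbol and no other. This gave 623 probesets and a value for 35 of the 36 genes, among 20416 genes with a value on the array. Ccnb1, cyclin B1, was the gene with no such probeset. The study asked what the loss of Setdb1, a methyltransferase of lysine 9 on histone H3, does in these cells.

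The 8 arrays formed 4 groups of 2. Marrow control cells were Setdb1 C/C pro-B cells without a Bcl2 transgene, and marrow deleted cells were Setdb1 Δ/Δ pro-B cells without it. Culture control and culture deleted cells had the same Setdb1 genotypes, carried the bcl-2 transgene and were cultured for 4 days with IL-7 (interleukin-7, the cytokine that sustains pro-B cells), at 5 ng/µl by the protocol. Culture and transgene went together, so their effects cannot be told apart. The protocol describes the culture step for all samples, but the series' design text takes the marrow samples directly from the bone marrow. The Cre driver and the age of the mice are not given in the sources used here. The sources used here do not state whether both arrays of a group are from different mice or cultures. The p-values therefore reflect the scatter of these 8 arrays, and that scatter may be technical.

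Transcription of mitosis genes is periodic: their promoters are held down in resting and early cycle cells by the MuvB complex with pocket and E2F proteins, and are driven after DNA replication by MuvB with B-Myb and FoxM1. MuvB binds a short element close to the gene's start, the CHR, and the trimeric factor NF-Y binds CCAAT boxes upstream of it. Pro-B cells divide in response to IL-7 and leave the cycle when they become small pre-B cells, and so mitosis genes are commonly used as a readout of proliferation.

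Most of the members' promoters that could be searched hold these elements. RefSeq promoter windows of 300 bases, from 250 bases before to 50 after each annotated start (GRCm38.p6), were matched by symbol for 29 of the 36 genes, in 32 windows. Aurkb, Ccna2, Cdc25c, Foxm1, Incenp, Kif20a and Tpx2 had no entry. The CHR was searched as TTTGAA or TTCGAA and the CCAAT box as CCAAT, on both strands. A CHR form was found in 26 of the 32 windows (81.25%), against 19.23% of the 32851 windows of the table, and a CCAAT box in 26 (81.25%), against 37.41%. Both stood in 23 windows of 20 genes (71.88%, against 7.525% of all windows). These are matches of letters, not measured binding. The 5 stretches printed here, 100 bases before the start to base 30 after it, belong to members named in the results below. The windows of all 5 hold both elements. Other members named there differ: the window of Anln held a CHR form without a CCAAT box, and that of Nuf2 held neither. Capitals mark complete CHR forms and CCAAT boxes, the latter on either strand.
Kif23, chr9:61946770-61946899, minus strand: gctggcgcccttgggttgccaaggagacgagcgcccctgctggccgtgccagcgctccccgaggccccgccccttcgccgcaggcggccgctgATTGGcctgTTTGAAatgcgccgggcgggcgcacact
Cenpf, chr1:189688057-189688186, minus strand: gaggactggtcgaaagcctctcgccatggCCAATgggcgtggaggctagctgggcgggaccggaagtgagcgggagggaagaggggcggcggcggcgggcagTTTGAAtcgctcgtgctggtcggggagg
Prc1, chr7:80294351-80294480, plus strand: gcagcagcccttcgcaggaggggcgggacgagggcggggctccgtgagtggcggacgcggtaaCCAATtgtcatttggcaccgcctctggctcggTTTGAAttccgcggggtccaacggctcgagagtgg
Plk1, chr7:122159335-122159464, plus strand: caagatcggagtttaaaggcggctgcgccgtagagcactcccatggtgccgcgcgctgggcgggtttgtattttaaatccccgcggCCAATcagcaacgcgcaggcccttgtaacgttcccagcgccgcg
Aurka, chr2:172370541-172370670, minus strand: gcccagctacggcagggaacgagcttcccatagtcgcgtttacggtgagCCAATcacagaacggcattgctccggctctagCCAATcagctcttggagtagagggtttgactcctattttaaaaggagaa
In Kif23 and Cenpf the TTTGAA element began at base 3 after the start, and in Prc1 at base -5. In Plk1 and Aurka it began at bases 31 and 33, beyond the stretch shown.

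Values are log2 signals after RMA, which normalises the arrays to each other, so each difference is relative to the other genes of the array. The medians over all genes ran from 5.25 to 5.33 between arrays. A gene's value is the median polish over its probesets, and levels are not compared between genes. The members were bright: their values lay between 6.03 and 10.62, above the 4.03 set as the limit for dim genes, and all 35 entered the tests. The gene value of Setdb1, from 23 probesets, overlapped between control and deleted cells (7.02 and 6.67 in marrow controls, 6.74 and 6.53 in marrow deleted cells, 6.84 and 6.45 for cultured controls, 6.66 and 6.99 in culture deleted cells), and probesets outside the deleted part check nothing. Marrow control 1 stood apart: its macrophage and monocyte markers had a mean log2 value of 9.96 over 13 genes, against 5.08 to 6.82 in the other 7 arrays. Neutrophil markers (13 genes) had means of 9.28 to 9.77 in the 4 marrow arrays, 4.58 and 7.91 in culture controls 1 and 2, and 5.37 and 8.43 in culture deleted 1 and 2. The pro-B markers present on the array, 13 of the 14 listed, lay above the limit for dim genes in every array. Vpreb1 (10.32 to 11.22) and Pax5 (9.65 to 10.58) varied little between arrays. Others varied more, such as Rag1 (6.43 to 9.999), Dntt (6.06 to 10.89) and Kit (4.81 to 7.23). With deletion, 11 of the 13 read higher and 2 lower in marrow (median 0.32). In culture 5 read higher and 8 lower (median -0.52). Averaged over both conditions, 2 of the 13 rose with limma at an adjusted p under 0.05 and 0 fell, where 1.48% of all genes rose. These were Vpreb2, by 1.38 (adjusted p = 0.00587), and Igll1, by 0.98 (adjusted p = 0.027).

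The members moved together between arrays. Relative to each gene's mean over the 8 arrays, the median member of the marrow controls stood at 0.15 and 0.00, and that of marrow deleted cells at 0.35 and 0.43. The culture controls stood at -0.28 and -0.27, and culture deleted arrays 1 and 2 at -0.29 and -0.02. All 35 members lay above their own mean in both marrow deleted arrays, and 0 and 4 did so in the culture controls. A marrow deleted array was the highest of the 8 for 33 members (9 for array 1 and 24 for array 2), and culture deleted 1 was the lowest for 15. The medians over all 16050 genes tested lay between -0.04 and 0.02 in the same arrays.

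**Figure D1:**
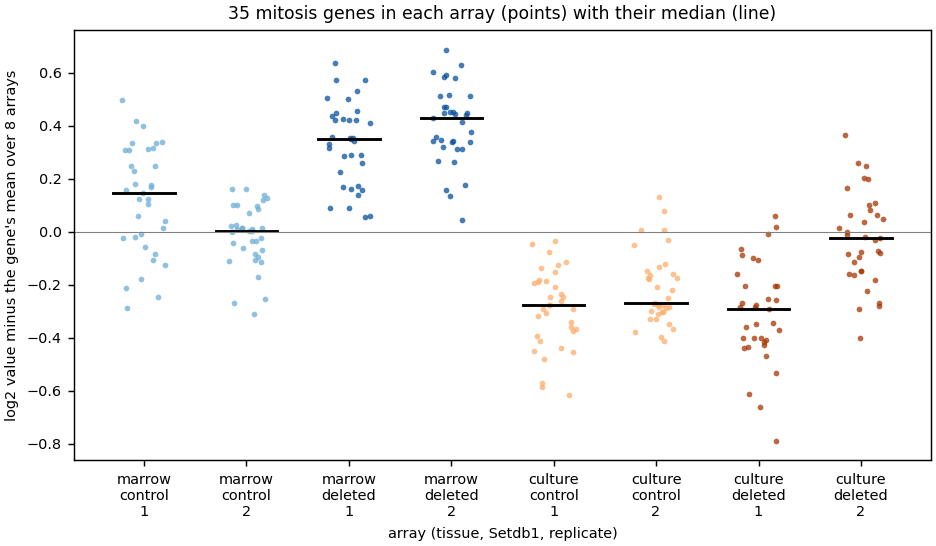
Each point is 1 of the 35 mitosis genes in 1 array, as its log2 value minus that gene's mean over the 8 arrays (y axis), and black lines are medians. The marrow deleted arrays have medians of 0.35 and 0.43, above all other arrays, and culture deleted 2 lies above culture deleted 1 (-0.02 against -0.29).

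Deletion of Setdb1 in marrow came with higher readings of every member, by a median of 0.30 on the log2 scale against 0.04 over all genes tested, but no single member passed the test. A change above 0 was found for 35 of 35 members and for 56% of all genes. The changes ran from 0.12 (Kif20a) to 0.59 (Ect2), with a median standard error (SE) of 0.17. With limma and Benjamini-Hochberg adjustment over all genes at 0.05, 0 of 35 members passed, where 0.131% of all genes did. At an unadjusted p under 0.05, 8 members read higher, where 6.64% of all genes read higher. Both deleted arrays lay above both controls for 28 of 35 members, against 27.3% of all genes. A larger share of dividing cells and more RNA per dividing cell cannot be told apart in such bulk samples.

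Of the 9 genes of spindle motors and cytokinesis, Prc1, Anln and Ect2 had the lowest p-values among the members, and Kif20a had the highest. Prc1, which bundles the microtubules of the central spindle, read 8.29 and 8.32 in the marrow controls and 8.74 and 8.92 in marrow deleted cells. Its replicates lay close together and the groups apart, a change of 0.52 (SE 0.14, adjusted p = 0.226), with 16 of its 17 probesets higher. Ect2, the exchange factor that activates RhoA for the contractile ring, read 7.84 and 8.07 against 8.40 and 8.68. This was 0.59 (SE 0.19, adjusted p = 0.297), and all of its 27 probesets read higher. Anln, anillin, which anchors that ring, read 8.32 and 8.22 against 8.77 and 8.85, a change of 0.54 (SE 0.17, adjusted p = 0.289). Kif23, a motor of the central spindle and partner of the RhoA activation step, read 9.11 and 8.86 against 9.41 and 9.35, a change of 0.40 (SE 0.16, adjusted p = 0.387). Tpx2, which targets Aurora A to the spindle, stood at 0.45 with a wider error (SE 0.28). The other motors stood lower, with Kif2c at 0.25, Kif4 at 0.21, Kif11 at 0.20 and Kif20a at 0.12.

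Among kinases and cyclins of mitotic entry, Aurka and Plk1 had the larger differences. Aurka, the kinase of spindle poles, read 7.88 and 7.78 in marrow controls and 8.32 and 8.23 in marrow deleted cells, a change of 0.44 (SE 0.18, adjusted p = 0.387). Plk1, a kinase active from mitotic entry to exit, read 9.18 and 8.75 against 9.35 and 9.49, a change of 0.46 (SE 0.19, adjusted p = 0.404). The groups did not overlap for either kinase, though the Plk1 controls differed by nearly as much as the group means. The phosphatase gene Cdc25c stood at 0.33, the centrosomal kinase Nek2 at 0.21, cyclin A2 (Ccna2) at 0.18, Cdc25b at 0.18 and cyclin B2 (Ccnb2) at 0.17.

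The spindle checkpoint delays chromosome separation until all kinetochores are attached. The 7 listed genes of checkpoint and anaphase, among them the anaphase activator Cdc20 and the cohesin protease Espl1, lay between 0.27 and 0.45 and had a median of 0.39. Cdc20 read 8.17 and 8.24 against 8.44 and 8.86, a change of 0.45 (SE 0.22, adjusted p = 0.47). Bub1b, a subunit of the checkpoint complex, stood at 0.41 (SE 0.16), Espl1 and the kinase Bub1 at 0.39 each, the kinase Ttk at 0.38, Mad2l1 at 0.30 and Bub3 at 0.27. The chromosomal passenger complex, which corrects faulty attachments, had changes of 0.32 for the scaffold Incenp and for Cdca8, 0.26 for survivin (Birc5) and 0.22 for its kinase Aurkb.

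At the kinetochore, the Ndc80 complex subunit Nuf2 had a tight difference, from 7.995 and 8.03 in the controls to 8.37 and 8.46, or 0.40 (SE 0.15, adjusted p = 0.358). Its partner Ndc80 stood at 0.25 (SE 0.28), the motor Cenpe at 0.23, Cenpf at 0.22 and the centromeric histone Cenpa at 0.16. The proliferation marker Mki67 stood at 0.30, the transcription factor Foxm1 at 0.25 and topoisomerase Top2a at 0.23, all with adjusted p above the threshold (0.487, 0.545 and 0.614).

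Marrow control 1, with its macrophage signal, was the higher of the 2 control arrays for 22 of the 35 members. Without it all 35 members still read higher with deletion, the median was 0.42 and 0 passed. The count of 8 at an unadjusted p under 0.05 depended on single arrays: it was 11 without marrow control 1, 2 without marrow control 2, 4 without marrow deleted 1 and 0 without marrow deleted 2. It was 5 without either culture control. With the macrophage and monocyte markers as a covariate it was 16, and the median change was 0.49. That covariate mainly sets marrow control 1 (9.96) apart from the other arrays (5.08 to 6.82). The share of all genes at an unadjusted p under 0.05 is not given for any refit, here or below. Refit counts therefore cannot be set against other genes. Markers of later B cell stages moved with the deletion as well. The 10 pre-B and mature B markers had mean log2 values of 7.72 and 8.67 in the marrow controls and 5.88 and 5.90 in marrow deleted cells. All 10 read lower (median -2.46) and 3 passed the test. These 3 were Cd74, the invariant chain of class II molecules, and the class II genes H2-Aa and H2-Eb1. Cd74 fell by 3.23 (SE 0.20, adjusted p = 0.00368). All 3 read higher in marrow control 1 than in marrow control 2 (Cd74 at 11.08 and 10.79), where the other markers of this list read lower. Macrophage and neutrophil markers read lower in 12 and 9 of 13 cases (medians -2.64 and -0.50), and 0 of them passed. At an unadjusted p under 0.05, 5 macrophage markers read lower and 0 higher. The neutrophil markers were split: 4 read higher, and at that limit 2 read higher and 0 lower. These 2 were Ms4a3 (1.86, SE 0.45) and Prtn3 (1.88, SE 0.63). The part of these cell types in the mitosis gene result was not tested.

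**Figure D2:**
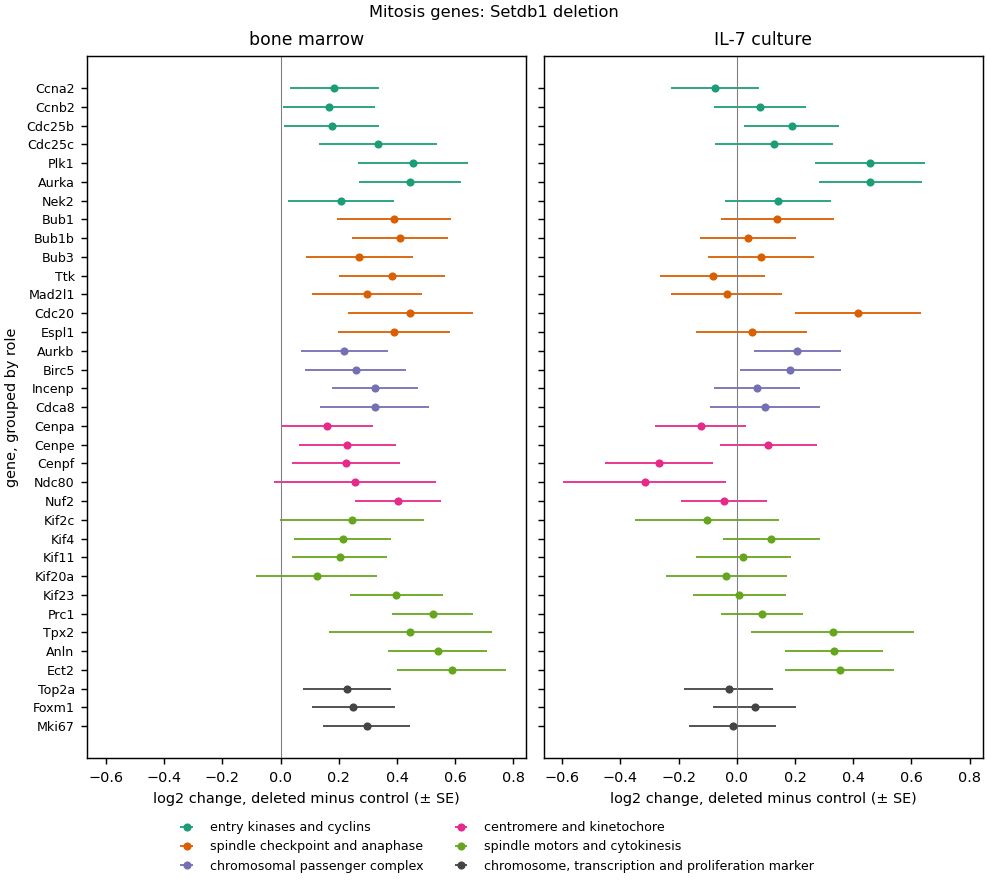
Points are log2 changes with Setdb1 deletion (deleted minus control, x axis) for the 35 genes listed on the y axis, coloured by role, with bars of 1 SE of the limma fit. In bone marrow all points lie above 0, from 0.12 to 0.59, and in IL-7 culture they lie between -0.32 and 0.46, with 24 above 0.

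In IL-7 culture the members as a group did not move the same way in both deleted arrays. The median change was 0.08, against 0.01 over all genes, with 24 members above 0 and 11 below, where 51.3% of all genes lay above 0. With limma 0 of 35 passed, where 1.45% of all genes did, and 2 read higher at an unadjusted p under 0.05, where 7.65% of all genes did. Groups did not overlap for 10 members that read higher (22.4% of all genes) and 2 that read lower (21.8%). The sign of the median rested on culture deleted 2, in which 31 members lay above the mean of the culture controls (median 0.19). In culture deleted 1 only 12 did (median -0.05). The median was 0.04 with arrays centred on their medians and 0.016 with the macrophage covariate. The count of 2 became 5 without culture deleted 1, 1 without culture deleted 2 or culture control 2, and 0 without culture control 1 or either marrow deleted array. Neutrophil markers were also higher in array 2 than in array 1 of both culture groups, and 13 of 13 read higher with deletion (median 0.79). Pre-B and mature B markers averaged 8.70 and 8.96 in control arrays 1 and 2, against 6.94 and 6.57 with deletion, with 10 of 10 lower (median -1.67) and 3 past the test. Their part in the result was not tested.

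Aurka and Plk1 had the lowest p-values in culture. Aurka read 7.32 and 7.68 in culture controls and 7.83 and 8.09 in culture deleted cells, a change of 0.46 (SE 0.18, adjusted p = 0.278). Plk1 read 8.56 and 8.67 against 8.93 and 9.22, also 0.46 (SE 0.19, adjusted p = 0.313), with all 8 probesets higher. Cdc20 read 7.95 and 8.17 against 8.24 and 8.71, a change of 0.42 (SE 0.22, adjusted p = 0.426). For these 3 genes both deleted arrays lay above both controls, by a small margin for Cdc20. Ect2 read 7.61 and 7.75 against 7.85 and 8.22 (0.35, SE 0.19), and Anln read 7.68 and 7.96 against 8.004 and 8.30 (0.33, SE 0.17). Anln's groups were separated by a gap far smaller than the distance between its replicates.

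The 5 kinetochore genes had a median of -0.12, and 0 of them reached an unadjusted p under 0.05. Cenpf, a large protein of the outer kinetochore, read 8.002 and 7.91 in culture controls and 7.58 and 7.80 in culture deleted cells, a change of -0.27 (SE 0.19, adjusted p = 0.576). Both deleted arrays were lower, and 15 of its 21 probesets read lower. Ndc80 read 8.07 and 8.28 against 7.41 and 8.30, so that its change of -0.32 (SE 0.28) rested on culture deleted 1. Cenpa stood at -0.12, Nuf2 at -0.04 and Cenpe at 0.11.

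Most other members stood near 0 in culture. Kif23 (0.01), Mki67 (-0.01), Kif11 (0.02), Top2a (-0.03), Mad2l1 (-0.04), Kif20a (-0.04) and Bub1b (0.04) lay within 0.04 of 0, each with an SE of 0.15 to 0.21. Ccna2 stood at -0.07, Ttk at -0.08 and Kif2c at -0.10. Tpx2 stood at 0.33 (SE 0.28), Aurkb at 0.21, Cdc25b at 0.19, Birc5 at 0.18, Nek2 and Bub1 at 0.14, Cdc25c at 0.13 and Kif4 at 0.12. Between 0.05 and 0.10 lay Cdca8, Prc1, Bub3, Ccnb2, Incenp, Foxm1 and Espl1.

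The difference between the deletion effects, culture minus marrow, was tested in the same fit. Its median over the members was -0.23, against -0.04 over all genes, with 32 of 35 below 0, as were 54.4% of all genes. No gene of the 16050 passed, and 0 members reached an unadjusted p under 0.05, where 7.58% of all genes did. The median was -0.089 without culture deleted 1, -0.35 without culture deleted 2, -0.34 without marrow control 1 and -0.43 with the macrophage covariate. The count of 0 became 1 without marrow control 1, 3 without culture deleted 2 and 5 with the covariate. Prc1 came nearest at -0.44 (SE 0.20, adjusted p = 0.666), followed by Nuf2 at -0.45 (SE 0.21). For Plk1 (0.00, SE 0.27), Aurka (0.02, SE 0.25), Cdc25b (0.01, SE 0.23) and Aurkb (-0.01, SE 0.21) the estimated difference was near 0 with a wide error. It was therefore not shown that deletion acted differently on any member in marrow and culture.

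Averaged over both conditions, the deletion effect had a median of 0.18 over the members and 0.02 over all genes, with 33 of 35 members and 53.2% of all genes above 0. With limma 0 of 35 passed, where 2.86% of all genes did, and 6 read higher unadjusted, where 10.4% did. The count of 6 became 13 with the macrophage covariate, where the median was 0.20. Leaving out single arrays moved the count in both directions, with medians of 0.13 to 0.25. The 6 were Anln (0.44, SE 0.12, adjusted p = 0.111), Aurka (0.45, SE 0.12, adjusted p = 0.113), Ect2 (0.47, SE 0.13), Plk1 (0.46, SE 0.13), Prc1 (0.30, SE 0.10) and Cdc20 (0.43, SE 0.15). Cdc20 was the 1 member whose 4 deleted arrays all lay above all 4 controls, by a margin far smaller than its replicate spread, as 5.13% of all genes did.

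**Figure D3:**
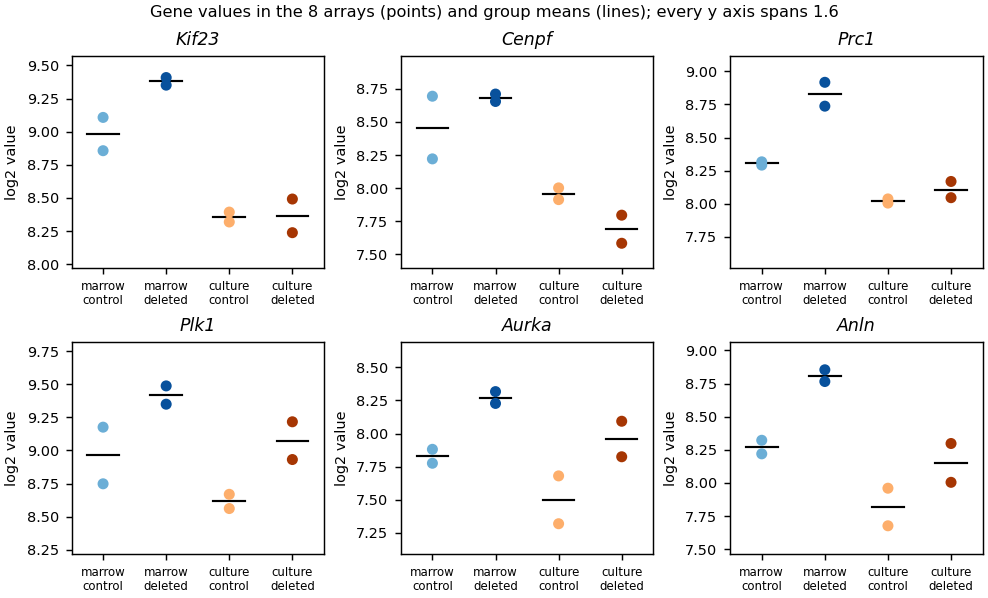
Log2 gene values of 6 members in the 8 arrays (points) with group means (lines), by group on the x axis and over the same span of 1.6 on each y axis. All 6 genes read lower in culture than in marrow in both genotypes without overlap. Plk1, Aurka, Anln and Prc1 read higher in deleted than in control cells of both conditions without overlap. For Prc1 in culture the groups nearly met: 8.04 and 8.01 in controls against 8.05 and 8.17, a change of 0.09 (SE 0.14).

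Cultured cells with the transgene read lower than marrow cells for nearly all members. Each of these comparisons shares its arrays with the deletion comparisons, so their values are not independent, and the contrast between control and deleted cells is the difference tested above. Among controls, 34 of 35 members read lower in culture (48.4% of all genes), with a median of -0.30, against 0.01 over all genes, and Bub3 read higher (0.17, SE 0.18). Among deleted cells all 35 read lower (53.7% of all genes), with a median of -0.57, against -0.02 over all genes. With limma 0 of 35 passed among controls (0.305% of all genes), and 1 fell among deleted cells (0.978% of all genes in either direction, 0.293% lower). At an unadjusted p under 0.05, 13 and 24 members read lower, where 6.51% and 6.33% of all genes did. The count of 13 in controls was 2 without marrow control 1, 3 without culture control 1, 5 without culture control 2 and 5 with arrays centred. With the macrophage covariate it was 0, and the median was -0.17. The count of 24 in deleted cells was 15 without culture deleted 1. Both culture arrays lay below both marrow arrays for 27 members among controls and 31 among deleted cells, against 19.7% and 24.6% of all genes.

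Kif23 was the member that passed. It read 9.41 and 9.35 in marrow deleted cells and 8.24 and 8.49 in culture deleted cells, with no overlap. It fell by 1.02 on the log2 scale (SE 0.16, adjusted p = 0.0385), and 24 of its 25 probesets read lower. The call did not hold without any 1 of the 4 arrays compared, without either culture control (adjusted p = 0.0701 to 0.294 for these 6), or with the replicate number as a block (adjusted p = 0.07). Among controls Kif23 had the lowest p as well, 9.11 and 8.86 in marrow against 8.32 and 8.39 in culture, a change of -0.63 (SE 0.16, adjusted p = 0.184).

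Cenpf and Prc1 followed among deleted cells. Cenpf read 8.65 and 8.71 in marrow against 7.58 and 7.80 in culture, a change of -0.99 (SE 0.19, adjusted p = 0.0657), with all 21 probesets lower in both culture arrays. Prc1 read 8.74 and 8.92 against 8.05 and 8.17, a change of -0.72 (SE 0.14, adjusted p = 0.0709). Bub1b stood at -0.82 (SE 0.16, adjusted p = 0.0783), Kif2c at -0.80 (SE 0.25), Bub1 at -0.74, Cdc25c at -0.72, and Mki67, Incenp and Kif4 at -0.70 each. Nuf2 read 8.37 and 8.46 against 7.66 and 7.93, a change of -0.62 (SE 0.15, adjusted p = 0.125), and Ect2 stood at -0.51. In these cells 39 of the 40 Top2a probesets lay lower in both culture arrays than in both marrow arrays, for a change of -0.53 (SE 0.15, adjusted p = 0.202).

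Among controls the larger differences after Kif23 were Kif4, a chromosome-bound motor, at -0.61 (SE 0.17, adjusted p = 0.213), Cdc25c at -0.51, Cenpf at -0.50, Bub1 at -0.49, Cenpe and Ccnb2 at -0.47, Kif2c at -0.46, and Incenp, Bub1b, Anln and Tpx2 at -0.45. Plk1 stood at -0.35 and Aurka at -0.33, close to their -0.34 and -0.31 among deleted cells. A few members had small estimated differences between marrow and culture in both genotypes, with SEs of 0.15 to 0.22. They were Cdc25b (-0.04 and -0.02), Nek2 (-0.01 and -0.07), Bub3 (0.17 and -0.02), Cdc20 (-0.14 and -0.17) and Aurkb (-0.14 and -0.16). The groups still did not overlap for Cdc20 and Aurkb in controls and for Nek2 in deleted cells. By role, spindle motors and cytokinesis genes had medians of -0.45 and -0.66, checkpoint and anaphase genes -0.21 and -0.62, kinetochore genes -0.18 and -0.62, and entry kinases and cyclins -0.35 and -0.34, in control and deleted cells. The neutrophil markers, lower in culture in 13 of 13 cases in both genotypes (medians -3.36 and -2.28), moved the same way. Macrophage and monocyte markers were lower in culture in 13 of 13 cases among controls (median -3.00) and in 5 of 13 among deleted cells (median 0.67). The part of the neutrophil markers in the result was not tested.

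**Figure D4:**
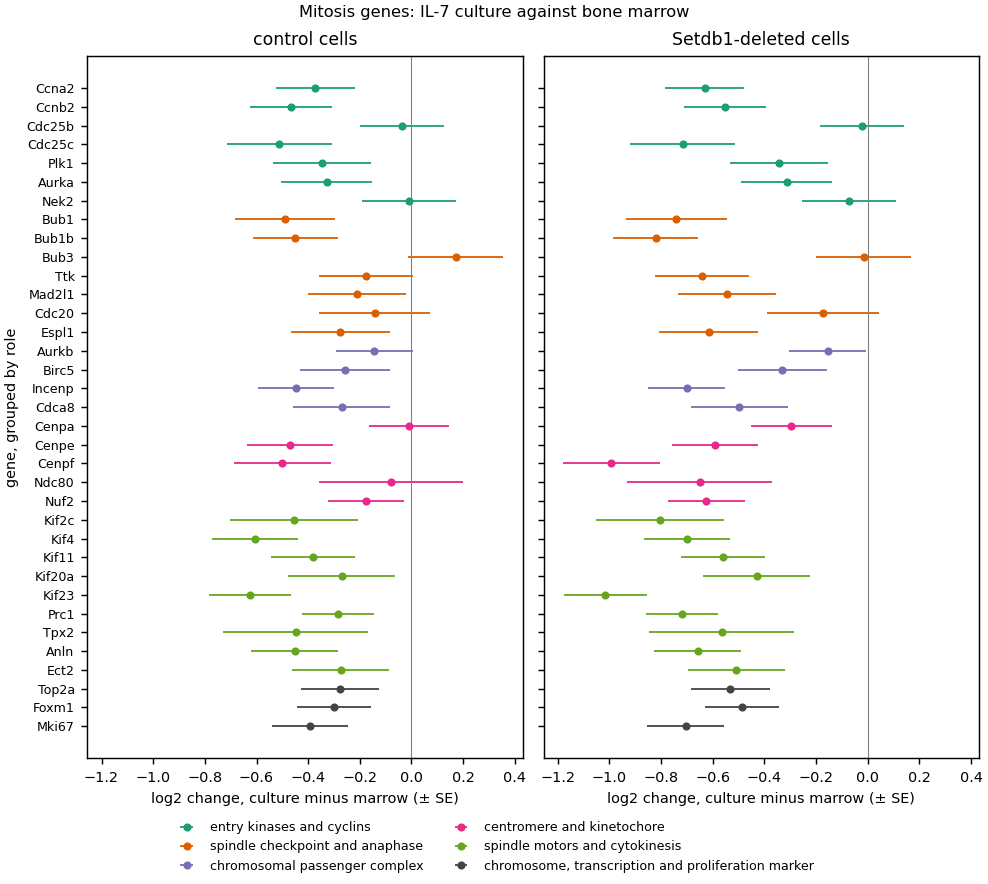
Points are log2 changes of IL-7 culture against bone marrow (culture minus marrow, x axis) for the 35 genes on the y axis, coloured by role, with bars of 1 SE. Among control cells 34 lie below 0, and among Setdb1-deleted cells all 35 do, down to -1.02 for Kif23.

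Other cell cycle genes were read beside the list. Of 49 further mitosis genes tested, 47 read higher with deletion in marrow (median 0.32), 34 in culture (median 0.07), and 43 and 48 read lower in culture than in marrow among control and deleted cells (medians -0.21 and -0.50). Of all genes 56% and 51.3% lay above 0 with deletion, and 48.4% and 53.7% read lower in culture. With limma 0 of the 49 passed in these comparisons, and 13 and 2 read higher, and 12 and 29 lower, at an unadjusted p under 0.05. At that limit 6.64% and 7.65% of all genes read higher, and 6.51% and 6.33% lower. Cdk1, the kinase bound by the mitotic cyclins (Cdc2a on the array), had a mean deletion effect of 0.43 (SE 0.12, adjusted p = 0.107). The condensin and cohesin genes, which shape and hold chromosomes, had medians of 0.27 and -0.11 over 19 genes with deletion in marrow and culture, and 0 passed (5 higher and 1 lower, then 3 lower, unadjusted). Unadjusted, 6.64% of all genes read higher and 5.2% lower in marrow, and 7.35% lower in culture. The list for the anaphase promoting complex, whose subunits are present through the cell cycle, also held Fzr1, Ube2s and Mad1l1, which are not core subunits. This list had medians of 0.18 and 0.07 over 17 genes, and 0 passed (0, then 1 lower, unadjusted).

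DNA replication genes, which act before mitosis, had a median of 0.43 with deletion in marrow over 34 genes, and 0.17 in culture. In marrow all of them lay above 0, as did 56% of all genes. Among deleted cells the replication genes lay lower in culture by a median of -0.44, and 1 fell, where 0.293% of all genes did. It was the thymidylate synthase Tyms, at -1.07 (SE 0.18, adjusted p = 0.0439). Tyms also rose with deletion over both conditions, by 0.96 (SE 0.12, adjusted p = 0.0133). Among regulators of mitosis gene promoters, 20 of them tested, 1 rose and 1 fell in that contrast: the repressor E2f6 by 0.66 (SE 0.10, adjusted p = 0.0231), and the pocket protein Rb1, which fell by 0.77 (SE 0.12, adjusted p = 0.0236). Their list had a median of 0.14. Of all genes 1.48% rose and 1.38% fell in the same contrast. No difference between these lists and the mitosis genes was tested.

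**Figure D5:**
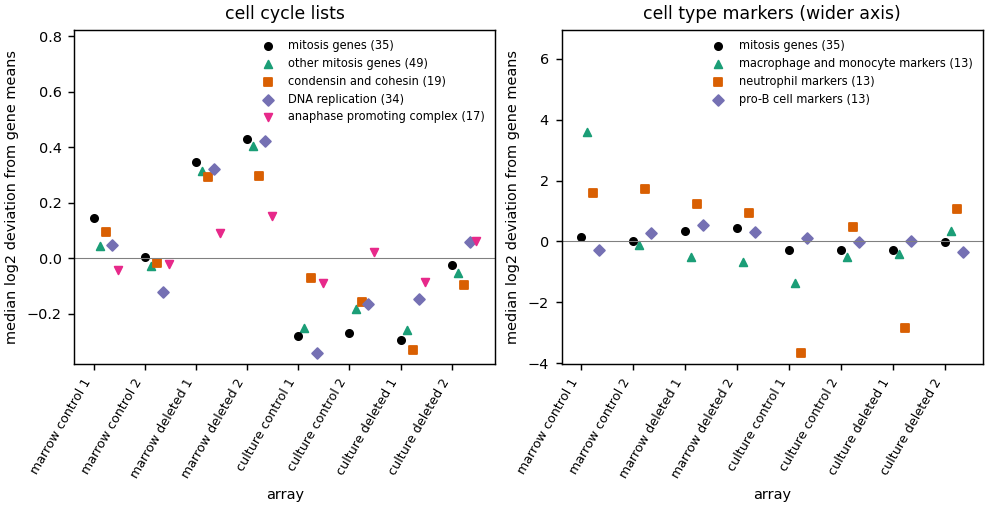
Symbols are the median log2 deviation of a gene list from its genes' means over the 8 arrays (y axis) in each array (x axis), for cell cycle lists (left) and cell type markers (right, wider axis), with the number of genes in brackets. The further mitosis genes and DNA replication genes are highest in the marrow deleted arrays, as the mitosis genes are (0.35 and 0.43), and macrophage markers stand out in marrow control 1 (3.60).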

How the data were processed

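RNA of the 8 samples was amplified and biotin-labelled with Nugen kits and read on an Affymetrix gene array, per the labels' protocols. The authors deposited log2 values for 241576 probesets, for which the submitters' processing notes name RMA and Affymetrix Expression Console 1.2.0.20. The genome build is not given in the sources used here. Probesets naming 1 symbol (212097) were combined per gene by median polish. The 9 probesets that name a member beside another gene were left out. Genes above the 25th percentile of gene values (4.03) in at least 2 arrays were tested (16050).

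One model with 4 group means was fitted to the 8 arrays with limma 3.58.1 (R 4.3.3), with 4 residual and 3.53 prior degrees of freedom. All tests are two-sided and adjusted by Benjamini-Hochberg over the genes tested. The fit was tested on simulated data. The number of arrays limits the precision of every value. Members, roles and lists were chosen with earlier results of these data known. All members are described. Of each other list, up to 4 genes past 0.05 or up to 2 with the lowest p could be named. Other markers named were chosen after their values were seen. The alternatives were another summary of probesets, other filters, scalings and variance models, a replicate block, a macrophage covariate, array weights, fits of the compared groups alone, and leaving out arrays.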

Additional observations from a re-analysis of the deposited data

How the results depend on the processing

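Each group had 2 arrays, and their number limits the precision. The count of members past 0.05 was 0 under every alternative tried for deletion in marrow, deletion in culture, their difference, and culture against marrow in controls. For the mean deletion effect it was 1 with the macrophage and monocyte covariate (Plk1, 0.56, adjusted p = 0.031) and 0 otherwise. For culture against marrow in deleted cells, where the count was 1, it was 0 with the mean of probesets, with bright probesets alone, with the replicate block and without both culture arrays numbered 2, 2 after a further quantile normalisation or with the compared groups alone, and 3 with the macrophage covariate or array weights. Leaving out single arrays gave 0 to 2. Kif23 kept its direction in that comparison in all 20 alternatives (-1.14 to -0.89) and lost the call in 10.

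With the macrophage covariate the median change was 0.49 for deletion in marrow, -0.43 for the difference between the deletion effects and -0.17 for culture against marrow in controls. Without both culture arrays numbered 2 the median for culture against marrow in deleted cells was -0.74. Leaving out single arrays gave medians of 0.23 to 0.42 for deletion in marrow, -0.049 to 0.19 for deletion in culture, -0.35 to -0.089 for the difference, 0.13 to 0.25 for the mean deletion effect, -0.38 to -0.26 for culture in controls and -0.74 to -0.40 for culture in deleted cells. The cause of these shifts was not tested.

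The replicate numbers do not pair the samples by any label. Differences between replicates 2 and 1 correlated over genes at 0.34 between the culture groups and at 0.05 between the marrow groups. With the replicate block the counts were 0 in 6 of 6 comparisons. The medians could not move, because every group holds both replicate numbers, so their equality tests nothing.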

Other observations

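Genes around the cell cycle's first phase and its exit were read in the same fit. Cdk6, the kinase partner of D-type cyclins, rose by 0.83 (SE 0.14, adjusted p = 0.0319) over both deletion comparisons. It was 1 of 12 genes of this phase (median 0.35), where 1.48% of all genes rose. Among 14 CDK inhibitors and genes of cell cycle exit, 13 had a mean deletion effect below 0 (median -0.27) and 0 passed with limma (0 higher and 5 lower unadjusted). Of all genes 46.8% lay below 0, 2.86% passed, and 10.4% read higher and 7.51% lower unadjusted. Ccng2 stood at -0.76 (SE 0.19, adjusted p = 0.0912) and Btg1 at -1.11 (SE 0.29, adjusted p = 0.0978). Ccng1, a target of p53, rose by 1.28 (SE 0.17, adjusted p = 0.0232) from marrow to culture in deleted cells. In controls it read higher in culture by 1.11 (SE 0.17, adjusted p = 0.0632), so the difference was present in both genotypes.

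Of 14 genes of IL-7 and STAT5 signalling, the feedback inhibitors Cish and Socs2 rose over both deletion comparisons, by 1.45 (SE 0.16, adjusted p = 0.00713) and 1.30 (SE 0.16, adjusted p = 0.011). In that contrast 1.48% of all genes rose. Il7r, the receptor chain, fell by 1.45 (SE 0.20, adjusted p = 0.0245) and Cish rose by 2.12 (SE 0.22, adjusted p = 0.0107) from marrow to culture in deleted cells. In controls the gene of this list that passed was Socs2, which rose by 1.84 from marrow to culture (SE 0.22, adjusted p = 0.029). Cish also read higher in culture among controls but did not pass. No gene of the list passed the test of the difference between the deletion effects. The changes of Il7r and Cish were therefore not shown to be particular to deleted cells. Il7r read 10.09 and 10.39 in marrow controls and 9.99 and 9.75 in culture controls.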
